A study of Mus musculus with 12 samples.

Results

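The genes described here are 36 chaperones, folding enzymes and stress sensors that keep proteins folded in the cytosol, the mitochondria and the endoplasmic reticulum (ER). They were taken by symbol from a mouse gene table of 55401 rows, in which 37 rows carried 1 of the 36 symbols. The extra row is a second identifier for Ddit3 that was at 0 counts in every library, and it was left out. It has 105 exon bases and lies within the Ddit3 gene. Reads in exons of more than 1 gene were left unassigned, so its 0 is no measure of its level. By role the set holds 12 cytosolic heat shock genes, 3 mitochondrial chaperones, 15 ER chaperones and folding factors, and 6 sensors and transcription factors of the unfolded protein response.

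RNA came from bone marrow derived macrophages of mice on the C57BL6 background, grown for 7 days in medium with 20 ng/mL macrophage colony-stimulating factor, which drives marrow precursors to become macrophages. There were 6 libraries from young animals aged 8 weeks and 6 from old animals aged 12 months. The labels give no genotype, allele or added agent, and no library used here was labelled as exposed to nanoparticles. They call the libraries biological replicates but do not say whether any share an animal. The p-values below therefore rest on the spread of these libraries, which may be technical.

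The cytosolic heat shock response is run by HSF1, a transcription factor held inactive by chaperones until unfolded protein draws those chaperones away. The unfolded protein response of the ER has 3 membrane sensors, IRE1 (gene Ern1), PERK (Eif2ak3) and ATF6, which the ER chaperone BiP (Hspa5) binds at rest. IRE1 splices Xbp1 mRNA, PERK slows translation and lets ATF4 be made, and ATF6 is cut to release a transcription factor. Macrophages secrete large amounts of protein and turn over what they engulf, so they carry a working folding machinery without stress. Counts per gene do not separate spliced from unspliced Xbp1 mRNA or measure the activity of any sensor.

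All 12 libraries carried macrophage RNA. Csf1r, the receptor for the culture's growth factor, ranged from 2524 to 5371 counts per 1000000 counts (CPM), and the macrophage surface protein Adgre1 from 745 to 1399 CPM. Young libraries held 22.2 to 25.2 M assigned counts and old ones 19.3 to 22.4 M (1 M is 1000000). Young replicate 6, old replicate 2 and old replicate 3 had the highest cell cycle gene levels (mean log2 CPM of 28 genes 6.83, 6.22 and 5.67, against 3.97 to 5.30 in the others). Young replicate 6 also had the lowest summed macrophage marker level of the 12 (26913 CPM) and the highest level of the progenitor marker Cd34 (59.7 CPM, against at most 9.40 elsewhere). Old replicate 6 held 18.96 CPM of 5 T and natural killer cell markers in sum, against at most 0.187 CPM in any other library. The listed markers of B and plasma cells, which carry far more ER than macrophages, summed to 24.6 to 49.7 CPM in young and 31.2 to 76.9 CPM in old libraries. Most of this was Sdc1 (22.0 to 74.9 CPM, highest in old replicate 6), while the plasma cell ER chaperone Mzb1 was at 0 in every library. In bulk RNA, fewer cells of a type and less RNA per cell cannot be told apart.

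Levels per kilobase of exon were highest for constitutive and ER chaperones and lowest, among the members tested, for a pair of heat-inducible HSP70 genes. Over the 12 libraries the cytosolic Hsc70 gene Hspa8, which folds nascent chains and uncoats clathrin, had the highest mean level, 376 CPM per kb. The lectin chaperone Calr followed at 326, the cytosolic HSP90 gene Hsp90ab1 at 268, Hspa5 at 256 and the disulphide isomerase Pdia3 at 245 CPM per kb. Hsp90b1, the ER form of HSP90, was at 124 CPM per kb and Sdf2l1, a cofactor of BiP, at 94.9 CPM per kb. The transcription factor Atf4 was at 88.8 CPM per kb. At the other end were that pair, Hspa1a and Hspa1b, at 0.256 and 0.225 CPM per kb. Together the 36 genes summed to between 7367 CPM (old replicate 3) and 10220 CPM (young replicate 5) in a library. The mean sum was 8969 ± 925 CPM (young) and 8538 ± 742 CPM (old), SD over 6 libraries each.

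**Figure D1:**
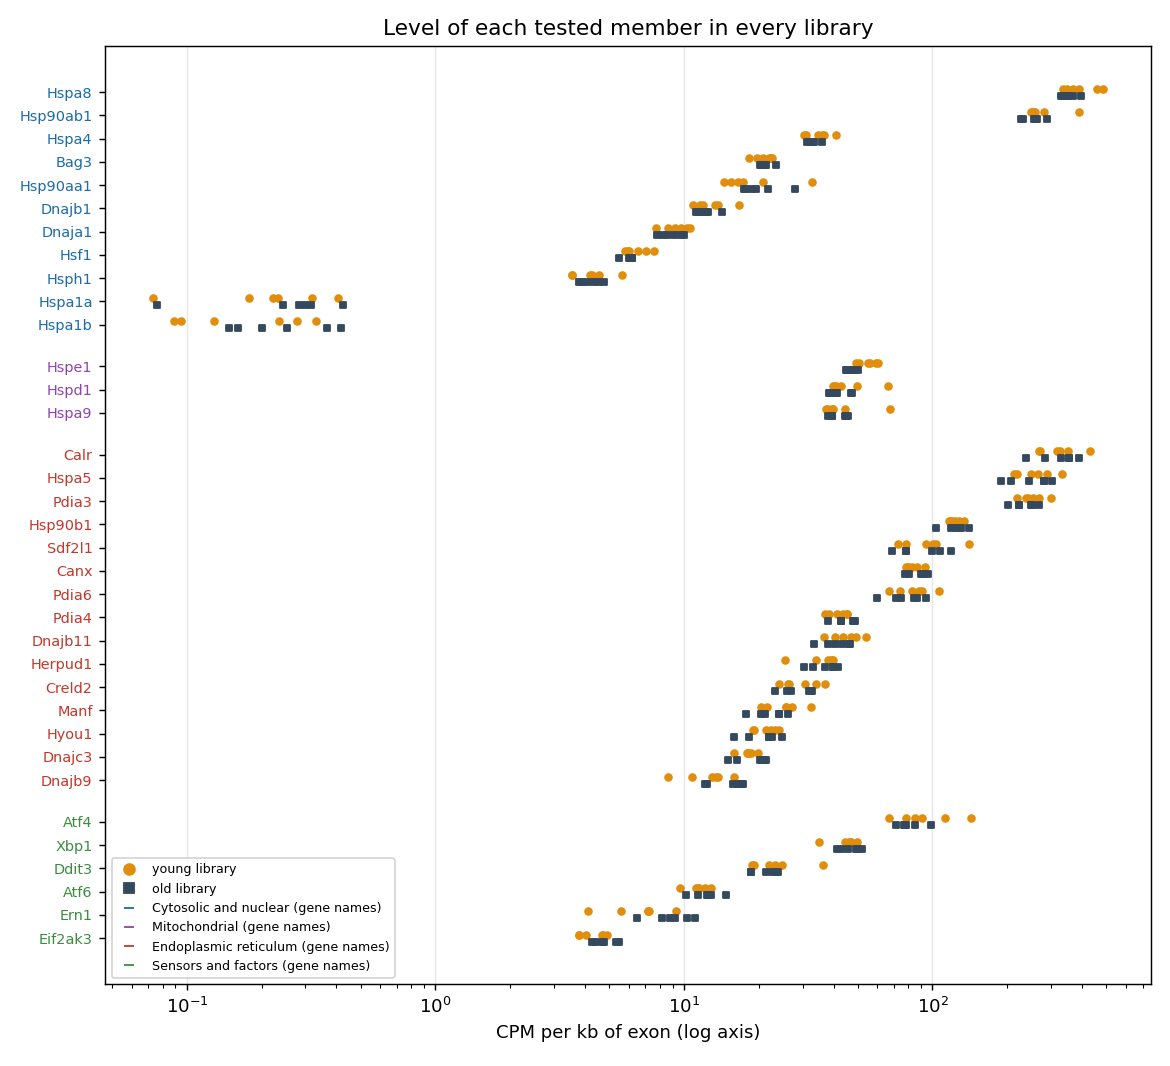
Level of each of the 35 tested genes in CPM per kb of exon on a log axis, with 1 point per library (circles for young, squares for old) and genes grouped by role. Hspa8 has the highest mean, 376 CPM per kb, Hspa1a and Hspa1b average 0.256 and 0.225 CPM per kb, and young and old points overlap for every gene.

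The comparison the design allows is old against young. At an adjusted p under 0.05 by edgeR's quasi-likelihood F test, 0 of the 35 members that could be tested were called, against a background of 0.0158% of all 12620 genes tested. Hspb1, a small heat shock protein, was too low to test, at 0 to 0.243 CPM (0 to 6 counts, where a count of 0 allows up to 0.119 to 0.155 CPM). Of the 50-base words of its exons 50.1% also occur in another gene, and reads aligned to more than 1 place were not counted. Its level is therefore uncertain. Without adjustment, 2 of 35 members (5.71%) had an edgeR p under 0.05, against a background of 5.47% of all genes. One was lower in old, the mitochondrial co-chaperonin Hspe1 (1 of 35, where 2.24% of all genes were lower at that p). The other was higher in old, the sensor Ern1 (1 of 35, where 3.23% were). Young and old libraries overlapped for every member, where 0.206% of all genes did not overlap. Adjusted edgeR p-values of the members ran from 0.77 to 0.98.

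The data also limit how far old and young can lie apart. Intervals here span 1.96 standard errors either way, a normal approximation to 95% that is somewhat narrower than the F test itself would give. For 32 of the 35 members this interval of the fold stayed within 1.5-fold in either direction, and the exceptions were Hspa1a, Hspa1b and Ern1. The median standard error of a member's log2 fold change was 0.11. A positive log2 fold change (higher in old) was found for 14 of 35 members (40%), against 47.5% of all genes. A log2 fold change of at least 0.25 in either direction was found for 3 of 35 (8.57%; Hspa1b, Dnajb9 and Ern1), against 16.6% of all genes. The median log2 fold change was -0.07 for the 11 cytosolic genes tested, -0.14 for the 3 mitochondrial, -0.04 for the 15 ER and 0.09 for the 6 sensors and factors, beside -0.01 over all genes. With young replicate 6, old replicate 2 and old replicate 3 left out, the cytosolic, mitochondrial and ER medians turned positive (0.00, 0.03 and 0.08), so their sign rested on those libraries. The ER median also turned positive without young replicate 5 (0.02) or without old replicate 3 (0.03).

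**Figure D2:**
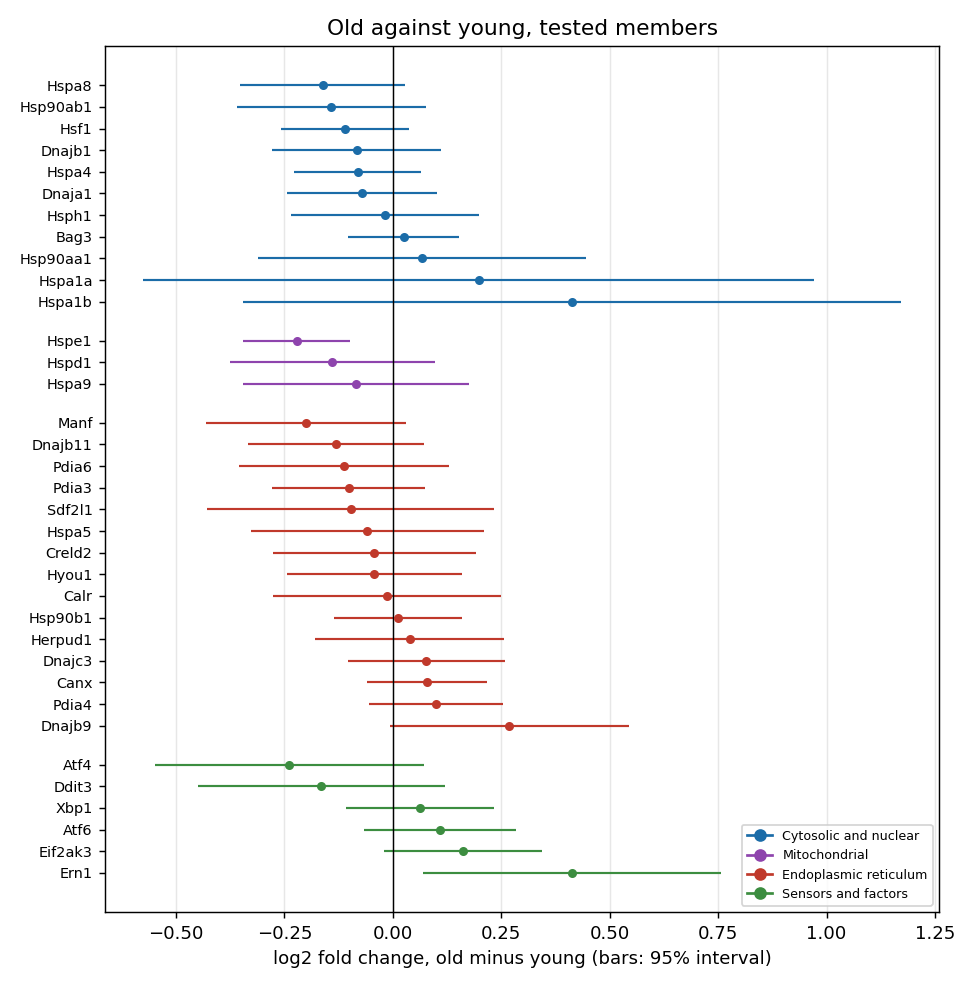
Log2 fold change of old over young for the 35 members tested, grouped by role, with 0 marked. Bars span 1.96 standard errors either way, an approximate 95% interval. The bars of Hspe1 and Ern1 leave out 0, with log2 fold changes of -0.22 and 0.41, and those of the other members cross it.

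Many ER chaperone genes carry a shared promoter element, the ER stress response element (ERSE), at which cleaved ATF6 binds next to the general factor NF-Y. It was defined on chaperone promoters such as these, so its presence is background and not a finding. Promoter windows from RefSeq (build GRCm38.p6, 250 bases before to 50 after the start) were at hand for 28 of the 36 members. Atf6, Hsf1, Hsp90aa1, Hsp90ab1, Hspa8, Hspa9, Hyou1 and Manf had none in the table. The letters CCAAT followed after 9 free bases by CCACG, searched on both strands, were in 7 of the 13 ER members with a window (53.8%), in none of the other members, and in 0.119% of all 32851 windows. The sites are shown because the ER members moved together between libraries, as described below. A link between the sites and that movement was not tested. They are printed 5′ to 3′ on the gene's strand, with the fixed letters of the element in capitals, and CGTGG before ATTGG is the same element read on the other strand.
Hspa5, chr2:34772020-34772048, plus strand: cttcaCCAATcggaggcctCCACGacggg
Calr, chr8:84847045-84847123, minus strand: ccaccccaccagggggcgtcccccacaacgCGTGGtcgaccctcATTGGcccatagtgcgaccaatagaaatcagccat
Hsp90b1, first site, chr10:86705633-86705661, minus strand: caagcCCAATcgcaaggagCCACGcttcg
Hsp90b1, second site, chr10:86705528-86705556, minus strand: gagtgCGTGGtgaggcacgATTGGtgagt
Canx, chr11:50325770-50325848, minus strand: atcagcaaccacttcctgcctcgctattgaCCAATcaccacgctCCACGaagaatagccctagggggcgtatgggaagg
Pdia6, chr12:17266461-17266539, plus strand: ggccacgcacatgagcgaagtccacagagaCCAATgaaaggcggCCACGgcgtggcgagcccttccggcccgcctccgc
Dnajc3, chr14:118937797-118937875, plus strand: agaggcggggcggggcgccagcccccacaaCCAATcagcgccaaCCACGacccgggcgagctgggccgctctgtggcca
Creld2, chr15:88819490-88819568, plus strand: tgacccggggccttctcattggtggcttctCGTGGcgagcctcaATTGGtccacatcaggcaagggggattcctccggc

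Distances here run from the RefSeq start site, which can lie inside the Ensembl gene whose coordinates are given below. In Hspa5 the element began 65 bases before that start, in annotated exon sequence, and in Calr 162 bases before it. The Hsp90b1 window alone held a pair of elements, one in each orientation, starting 212 and 107 bases before the start. A shorter form, ERSE-II (ATTGG and CCACG with 1 free base between, both strands), was in the windows of Herpud1 and Dnajb11 and in 0.0365% of all windows. Herpud1, which helps pull misfolded proteins out of the ER, carried it 52 bases before its start.
Herpud1, chr8:94386372-94386392, plus strand: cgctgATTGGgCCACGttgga
The core that XBP1 favours, TGACGTG, was in the Hspa5 window alone among members and in 2.01% of all windows.
Hspa5, second element, chr2:34771928-34771944, plus strand: agcaaTGACGTGagttg
A match in these letters is a description of the window and does not show that a factor was bound in these cells.

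Among the ER chaperones, BiP itself differed little between ages. Hspa5 (ENSMUSG00000026864, GRCm38 chr2:34771970-34777547, plus strand) was at 1222, 1052, 926, 1122, 1408 and 897 CPM in young replicates 1 to 6. In old replicates 1 to 6 it was at 1281, 872, 796, 1193, 1192 and 1031 CPM. The highest library was young and the lowest old, with both ages mixed in between. Mean levels were 1105 ± 192 CPM for young and 1061 ± 195 CPM for old (SD, n = 6 each). The log2 fold change was -0.06 with a standard error of 0.14 (0.96-fold, interval 0.80 to 1.16, edgeR adjusted p = 0.93).

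Calr, calreticulin, binds calcium and sugar-tagged glycoproteins in the ER lumen, and it had the highest level per kb of the ER members. Calr (ENSMUSG00000003814, chr8:84841850-84846934, minus strand) was at 1009.9, 783, 773, 911, 1236 and 938 CPM in young replicates 1 to 6. The old replicates gave 1115, 813, 686, 1021, 944 and 1024 CPM. As for Hspa5, young replicate 5 was highest and old replicate 3 lowest of the 12. Its log2 fold change was -0.01 with a standard error of 0.13 (edgeR adjusted p = 0.98). Canx, the membrane-bound partner of calreticulin, was steadier, from 364 to 451 CPM over all libraries, with means of 391 ± 26.7 in young and 413 ± 34.4 CPM in old.

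Dnajb9 (ERdj4), a co-chaperone that delivers BiP to IRE1, had the lowest p of the ER members. Dnajb9 (ENSMUSG00000014905, chr12:44205559-44210326, minus strand) was at 40.5, 34.4, 34.9, 33.2, 27.4 and 22.1 CPM in young replicates 1 to 6. In old libraries it was at 43.2, 30.9, 31.6, 42.0, 40.01 and 44.2 CPM. Old replicates 1, 4 and 6 lay above every young library, replicate 5 lay just under the highest young one, and replicates 2 and 3 lay inside the young range. Dnajb9 had a log2 fold change of 0.27 with a standard error of 0.14 (1.205-fold, interval 1.00 to 1.46), which did not pass (edgeR adjusted p = 0.77). Without young replicate 6, the lowest library, it was 0.18.

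Sdf2l1 spread most between libraries among the ER members, with a highest-to-lowest ratio of 2.05. Sdf2l1 (ENSMUSG00000022769, chr16:17130138-17132383, minus strand) was at 111, 80.6, 86.8, 114, 156 and 104 CPM in young replicates 1 to 6. The old replicates gave 131, 86.6, 75.8, 119, 111 and 86.7 CPM. Young replicate 5 was again highest and old replicate 3 again lowest, and the ages overlapped throughout. Sdf2l1 had a log2 fold change of -0.10 with a standard error of 0.17 (edgeR adjusted p = 0.89).

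The remaining ER members showed the same picture of high levels and small age differences. Hsp90b1, which folds Toll-like receptors and integrins, was at 497 ± 27.2 CPM (young) and 501 ± 51.4 CPM (old). Pdia3, which makes disulphide bonds in glycoproteins, was at 795 ± 87.6 and 741 ± 78.3 CPM. The related isomerases Pdia6 and Pdia4 were at 317 ± 51.5 and 100.4 ± 8.49 CPM in young, and at 294 ± 46.5 and 108 ± 10.5 CPM in old. Of the BiP co-chaperones, Dnajb11 was at 146 ± 20.1 and 134 ± 16.7 CPM, and Dnajc3, which also inhibits the kinase PERK, was at 93.1 ± 6.68 and 98.3 ± 13.9 CPM. These differences were all within the spread between libraries, with edgeR adjusted p-values of at least 0.78. Hyou1, a nucleotide exchange factor for BiP, was at 156 ± 15.2 and 151 ± 23.2 CPM. Manf, an ER protein that is secreted under stress, was at 90.1 ± 15.4 and 78.5 ± 10.7 CPM, with the most negative log2 fold change of the ER members (-0.20, standard error 0.12, edgeR adjusted p = 0.77). Creld2 was at 40.6 ± 6.84 and 39.4 ± 5.48 CPM, and Herpud1 at 83.8 ± 12.95 and 86.1 ± 10.1 CPM (SD, n = 6 per group for all of these).

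Of the 3 sensors, Ern1 gave the widest difference between ages. Ern1 (ENSMUSG00000020715, chr11:106394650-106487852, minus strand) was at 58.8, 58.6, 76.1, 59.0, 45.6 and 33.6 CPM in young replicates 1 to 6. In old replicates 1 to 6 it was at 71.7, 52.8, 67.0, 84.1, 75.5 and 90.8 CPM. Old replicates 4 and 6 lay above every young library, and the lowest old library, replicate 2, fell among the young values. Means were 55.3 ± 14.4 CPM for young and 73.6 ± 13.4 CPM for old (SD, n = 6 each). Its log2 fold change was 0.41 with a standard error of 0.17 (1.33-fold, interval 1.05 to 1.69), with an edgeR p of 0.0340 that did not pass after adjustment over all genes (adjusted p = 0.77). Old replicate 6, the highest library, is the one with T and natural killer cell markers and the highest Ly6c2, Itgax and Ccr7 levels. Young replicate 6, the lowest, is the one with the highest cell cycle level. Without young replicate 6 the log2 fold change of Ern1 was 0.31, and without old replicate 6 it was 0.35. With the 3 libraries of highest cell cycle level left out it was 0.43 (edgeR adjusted p = 0.17). Neither of the other sensors passed an unadjusted p of 0.05. Eif2ak3 was at 26.0 ± 3.04 CPM (young) and 29.1 ± 2.95 CPM (old) (log2 fold change 0.16, standard error 0.09), and Atf6 was at 106 ± 10.1 and 114 ± 14.04 CPM (0.11, standard error 0.09).

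The transcription factors downstream of the sensors did not separate by age. Xbp1 (ENSMUSG00000020484, chr11:5520659-5525893, plus strand) was at 162, 153, 149.9, 151, 144 and 114 CPM in young replicates 1 to 6. The old replicates gave 163, 139, 135, 169, 160.0 and 148 CPM. Young replicate 6 stood below every other library, and the rest lay between 135 and 169 CPM at either age. Xbp1 had a log2 fold change of 0.06 with a standard error of 0.09 (edgeR adjusted p = 0.87).

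Atf4 had the highest level per kb of these 6 genes. Atf4 (ENSMUSG00000042406, chr15:80255184-80257541, plus strand) was at 201, 184, 158, 213, 265 and 338 CPM in young replicates 1 to 6. In old replicates 1 to 6 it was at 185, 234, 182, 183, 200.1 and 168 CPM. Young replicate 6, with 338 CPM, was highest of all, and in the old group the highest was replicate 2. Atf4 had a log2 fold change of -0.24 with a standard error of 0.16 (edgeR adjusted p = 0.77), and without young replicate 6 it was -0.09.

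Ddit3 encodes CHOP, a factor induced under lasting ER stress and linked to cell death. Ddit3 (ENSMUSG00000025408, chr10:127290774-127296288, plus strand) was at 42.7, 37.8, 32.1, 39.8, 62.1 and 32.7 CPM in young replicates 1 to 6. The old replicates gave 39.0, 32.0, 31.9, 36.5, 40.4 and 40.9 CPM. One library, young replicate 5, stood apart at the top, and the other 11 lay between 31.9 and 42.7 CPM. Its log2 fold change was -0.16 with a standard error of 0.15 (edgeR adjusted p = 0.80). Of its exon bases 10.9% also lie in exons of other genes, the second Ddit3 identifier among them, and reads there cannot be assigned.

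In the cytosol, Hspa8 was the most abundant member, and of the heat-inducible ones Hspa1a, Hspa1b and Hspb1 had very few counted reads. Hspa8 (ENSMUSG00000015656, chr9:40800984-40810087, plus strand) was at 1669, 1493, 1439.7, 1586, 1970.2 and 2087 CPM in young replicates 1 to 6. In old replicates 1 to 6 it was at 1702, 1579, 1412, 1498, 1509 and 1458 CPM. The 2 highest libraries were young replicates 6 and 5, and the old group sat within the young range other than its lowest library. For Hspa8 the log2 fold change was -0.16 with a standard error of 0.10 (0.89-fold, interval 0.78 to 1.02, edgeR adjusted p = 0.77), the lowest p of the cytosolic members.

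Hspa1a and Hspa1b encode near-identical HSP70 proteins that heat induces strongly. Hspa1a (ENSMUSG00000091971, chr17:34969190-34972156, minus strand) was at 1.199, 0.530, 0.657, 0.943, 0.216 and 0.687 CPM in young replicates 1 to 6, and at 0.841, 1.26, 0.933, 0.888, 0.226 and 0.725 CPM in old ones. Hspa1b (ENSMUSG00000090877, chr17:34956436-34959238, minus strand) was at 0.248, 0.265, 0.657, 0.359, 0.779 and 0.930 CPM in young, and at 0.561, 1.02, 0.711, 1.17, 0.452 and 0.414 CPM in old replicates 1 to 6. No library of either age exceeded 1.26 CPM for either gene. Log2 fold changes were 0.20 (standard error 0.39) for Hspa1a and 0.41 (standard error 0.39) for Hspa1b, with edgeR adjusted p-values of 0.91 and 0.81. Of the 50-base words of their exons, 66.3% and 62.3% also occur in another gene, mostly in each other, and reads aligned to more than 1 place were not counted. Levels of this pair are therefore uncertain, and a fold difference up to 1.96 for Hspa1a and 2.25 for Hspa1b lay within the intervals.

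The mRNA of HSF1, the factor that switches these genes on, ranged from 38.8 to 54.0 CPM over the 12 libraries. Hsf1 (ENSMUSG00000022556, chr15:76477422-76501913, plus strand) was at 42.7, 42.2, 41.2, 46.2, 50.2 and 54.0 CPM in young replicates 1 to 6. The old replicates gave 43.7, 42.65, 43.9, 43.2, 43.7 and 38.8 CPM. Old replicates 1 to 5 lay between 42.65 and 43.9 CPM, replicate 6 lay below them, and young replicates 4, 5 and 6 lay above every old library. Its log2 fold change was -0.11 with a standard error of 0.08 (edgeR adjusted p = 0.77).

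The other cytosolic members were co-chaperones and HSP90 forms with no separation by age. The constitutive Hsp90ab1 was at 843 ± 163 CPM (young) and 764 ± 69.2 CPM (old). Its inducible relative Hsp90aa1 was at 77.0 ± 26.9 and 80.7 ± 15.4 CPM, and 47.5% of its exon words are shared with other genes. Hsp90aa1 was highest in young replicate 6, at 129 CPM, and second highest in old replicate 6, at 109.6 CPM. Without young replicate 6 its log2 fold change moved from 0.07 to 0.28, and with the 3 libraries of highest cell cycle level left out to 0.38 (edgeR adjusted p = 0.78 and 0.19). The nucleotide exchange factors Hspa4 and Hsph1 were at 193 ± 21.6 and 31.1 ± 5.58 CPM in young, and at 182 ± 9.39 and 30.7 ± 2.79 CPM in old. The J-domain co-chaperones Dnaja1 and Dnajb1, which hand clients to HSP70, were at 80.8 ± 9.40 and 41.7 ± 6.56 CPM in young, and at 77.0 ± 7.56 and 39.3 ± 3.42 CPM in old. Bag3, which links HSP70 to autophagy, was at 53.7 ± 4.34 and 54.7 ± 2.79 CPM (SD, n = 6 per group). None of these had an edgeR adjusted p under 0.78.

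Hspe1 had the lowest p of all 36 genes. Together with HSP60 (Hspd1) its product, HSP10, forms the folding chamber of the mitochondrial matrix, and the pair of genes lies head to head on chromosome 1. Hspe1 (ENSMUSG00000073676, chr1:55088132-55091307, plus strand) was at 80.7, 74.6, 72.8, 82.3, 87.3 and 89.1 CPM in young replicates 1 to 6. In old replicates 1 to 6 it was at 73.8, 69.9, 69.4, 66.7, 71.7 and 66.0 CPM. Only old replicate 1 reached into the young range, above young replicate 3. Means were 81.1 ± 6.54 CPM for young and 69.6 ± 2.93 CPM for old (SD, n = 6 each), a log2 fold change of -0.22 with a standard error of 0.06 (0.86-fold, interval 0.79 to 0.93) and an edgeR p of 0.00328, rank 28 of all genes, which did not pass after adjustment (adjusted p = 0.77). Of its exon words 22.8% are shared with other genes, and 112 bases lie in exons of both Hspe1 and Hspd1, which an unstranded library cannot assign.

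The other mitochondrial members had wider spreads and smaller differences. Hspd1 was at 123 ± 26.9 CPM (young) and 112 ± 10.5 CPM (old) (log2 fold change -0.14, standard error 0.12). Hspa9 (ENSMUSG00000024359), mortalin, pulls proteins into the matrix, and it was at 192, 161, 164, 171, 170.3 and 292 CPM in young replicates 1 to 6. The old replicates gave 193, 191, 170.0, 164, 169.9 and 198 CPM. Young replicate 6 stood alone at 292 CPM, with the other 11 libraries between 161 and 198 CPM. Hspa9 had a log2 fold change of -0.08 with a standard error of 0.13 (edgeR adjusted p = 0.88).

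Hspd1 and Hspe1 overlap by 112 bases at their 5′ ends, and upstream of the first base of Hspe1, inside Hspd1, lies a heat shock element (GAA, TTC and GAA with 2 free bases between each), the inverted repeat that HSF1 binds, and it is shown for the member of lowest p. These letters were in the windows of Hspd1, Hspe1 and Hsph1 among members, and in 0.603% of all windows on either strand. The Hspd1 and Hspe1 matches are the same shared bases, read in opposite directions, and the Hsph1 matches lie after its start. The Hspe1 match begins 84 bases before its RefSeq start, in annotated exon sequence, and its fixed letters are in capitals.
Hspe1, chr1:55088059-55088081, plus strand: ttctaGAAccTTCcgGAAggccc

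The members of a compartment often had their highest or lowest level in the same library. Among the 15 ER members, 8 had their highest level of all 12 libraries in young replicate 5 and 11 had their lowest in old replicate 3. Their summed level was 5847 CPM in young replicate 5 and 3799 CPM in old replicate 3. In the old group, 11 of 15 were highest in replicate 1, which summed to 5554 CPM. In the wider ER lists, old replicate 3 was the lowest of the 12 for 2 of 15 other ER folding factors. It was lowest for 1 of 18 genes of ER-associated degradation and 1 of 14 of translocation into the ER. The sums of these lists followed the members in part. The translocation sum was lowest in old replicate 3 (1353 CPM) but highest in old replicate 1 (1495 CPM). The degradation sum was highest in young replicate 5 (2323 CPM) but lowest in young replicate 2 (2187 CPM). The sum of the other folding factors was highest in young replicate 6 (1852 CPM) and lowest in old replicate 6 (1525 CPM). Cytosolic members followed another library, as 8 of the 11 tested were highest of the 12 in young replicate 6, where all 12 cytosolic genes summed to 3910 CPM and young replicates 1 to 5 to between 2682 and 3357 CPM. All 3 mitochondrial members were highest there too. In the same library, 4 of the 6 sensors and factors (Xbp1, Atf6, Ern1 and Eif2ak3) were at their lowest of the 12, while Atf4 was at its highest. Young replicate 6 had the highest cell cycle and lowest macrophage marker levels, and the part of these in the chaperone levels was not tested. For none of these libraries was the share of all genes highest or lowest in it measured, so these counts have no background beside them.

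**Figure D3:**
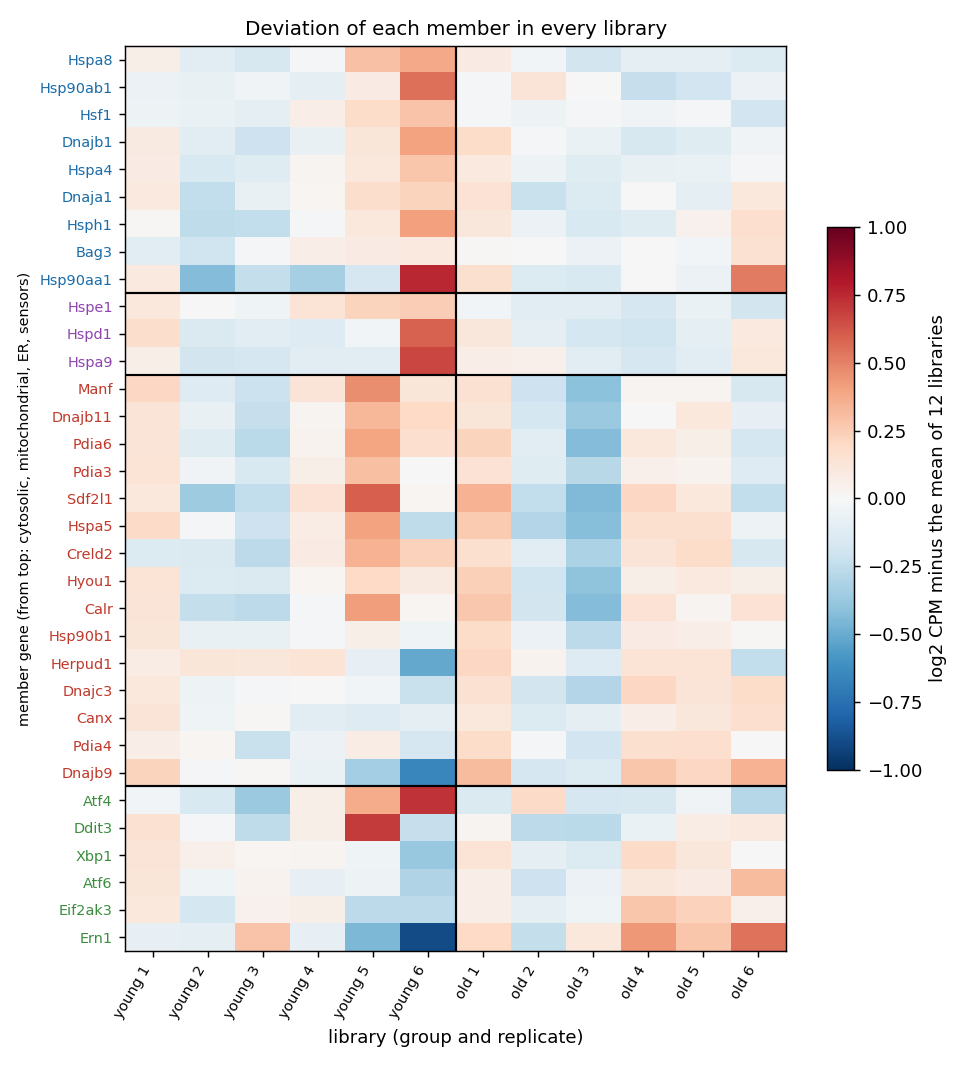
Heat map of each gene's log2 CPM in each library minus its mean over the 12 libraries, on a colour scale from -1 to 1, with genes grouped by role and Hspa1a, Hspa1b and Hspb1 left out as too low. ER genes are high in young replicate 5 (sum 5847 CPM) and low in old replicate 3 (sum 3799 CPM), and cytosolic and mitochondrial genes are high in young replicate 6.

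How the members moved with BiP across libraries was measured by correlation of log2 CPM over the 12 libraries. Each of the 20 other ER members and factors was set against Hspa5, and each of the 13 other cytosolic and mitochondrial members tested against Hspa8, which made 33 pairs with p-values from permutation tests of 100000 resamples adjusted over all pairs. With Hspa5, 13 of 20 passed an adjusted permutation p of 0.05 by r, all of them positive, and 11 of these also by rho. Pdia3 was closest (r = 0.91, rho = 0.90, adjusted permutation p = 0.000495 and 0.00495). Sdf2l1 (r = 0.86, rho = 0.87), Hsp90b1 (r = 0.85, rho = 0.84) and Calr (r = 0.85, rho = 0.79) followed. Ddit3, which is no chaperone, moved with BiP as closely as they did (r = 0.83, rho = 0.78, adjusted permutation p = 0.00165 and 0.0131). Xbp1 was looser (r = 0.64, rho = 0.69, adjusted permutation p = 0.0336 and 0.0354). Members that did not pass included Atf4 (r = 0.01, rho = 0.20), Ern1 (r = 0.12, rho = 0.06), Eif2ak3 (r = 0.25, rho = 0.43) and Atf6 (r = 0.41, rho = 0.48), with adjusted permutation p-values of at least 0.16. Genes of a library share its depth and composition, and among all 12619 other genes 5.54% reached an r of 0.7 with Hspa5, against 11 of these 20.

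Leaving out the end libraries lowered the number of calls. Without old replicate 3 and young replicate 5, the 2 libraries farthest from the median of Hspa5, 7 of the 20 passed (Hsp90b1, Pdia3, Ddit3, Dnajc3, Pdia4, Xbp1 and Dnajb9), with r from 0.72 to 0.87. Dnajb9 had not passed over all 12 (r = 0.38), and Sdf2l1 and Hyou1 lost their call at r of 0.73 and 0.72, which is no smaller than the 0.72 of Dnajb9. Ddit3 against Hspa5 gave r = 0.96 within the 6 young and 0.80 within the 6 old libraries, and 0.81 without those 2 libraries. Dnajb11 gave r = 0.77 over all libraries, 0.52 without those 2, and 0.97 without young replicate 6, a check added after seeing the data. Within the old group Manf, Dnajb11 and Xbp1 gave r = 0.97, 0.97 and 0.96, and within the young group 0.78, 0.59 and 0.49. Of the 6 ERSE-bearing members other than Hspa5 itself, 5 passed by r over the 12 libraries and Canx did not (r = 0.38, rho = 0.29, adjusted permutation p = 0.266 and 0.401). By rho Dnajc3 and Creld2 did not pass either, and without the end libraries Hsp90b1 and Dnajc3 passed. Of the ER members whose windows held no such match, Pdia3, Sdf2l1, Pdia4 and Dnajb11 passed by r over the 12 libraries, and Dnajb9 and Herpud1 did not. Dnajb11 and Herpud1 held the shorter ERSE-II. Whether either element had a part in the shared movement was not tested.

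**Figure D4:**
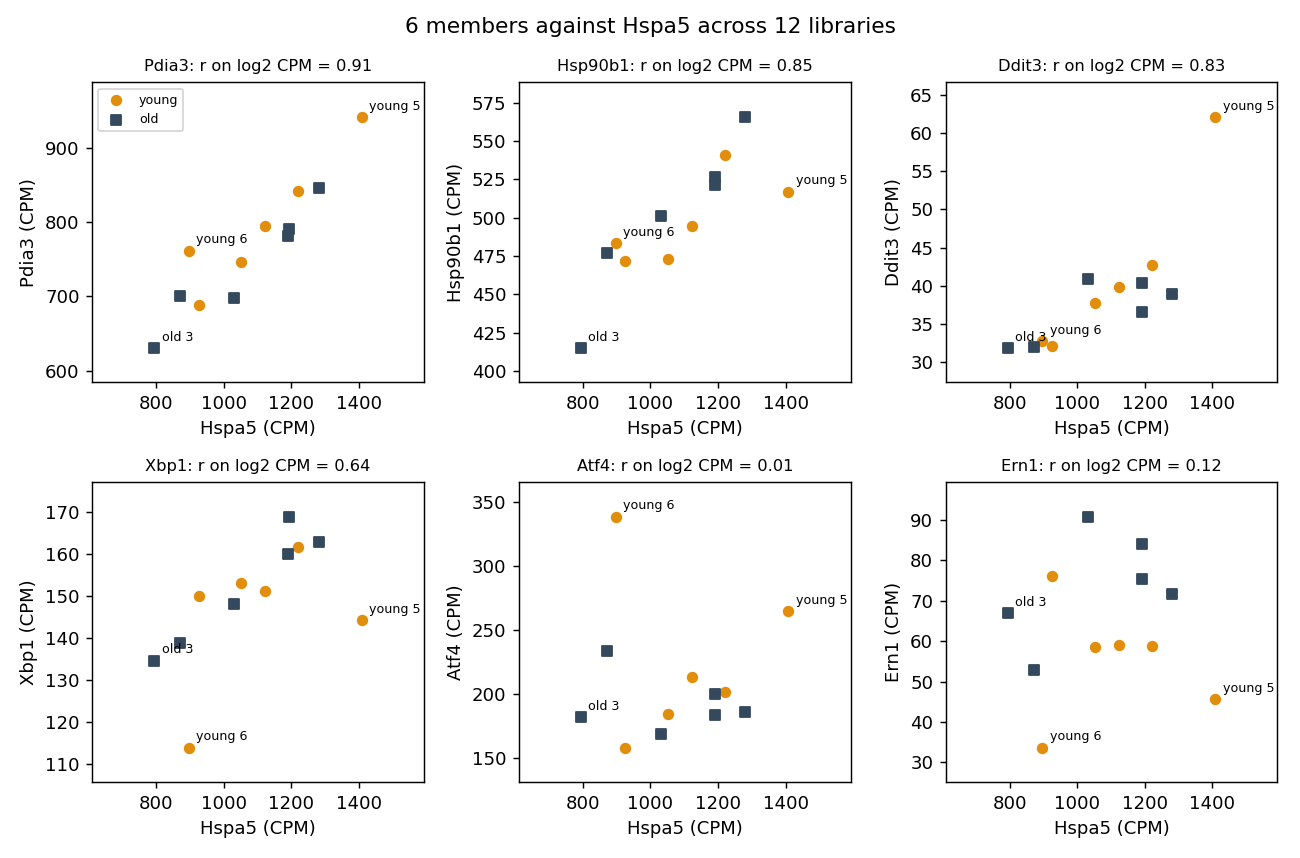
CPM of 6 members (vertical axes, which do not start at 0) against CPM of Hspa5 (horizontal axes), 1 point per library, with circles for young and squares for old. Pdia3, Hsp90b1 and Ddit3 follow Hspa5 (r of log2 CPM 0.91, 0.85 and 0.83), Xbp1 less closely (0.64), and Atf4 and Ern1 spread without a slope (0.01 and 0.12).

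Cytosolic and mitochondrial members were set against Hspa8 in the same way. Of 13 pairs, 9 passed an adjusted permutation p of 0.05 by r and 6 of these also by rho, led by Hspa4 (r = 0.92, rho = 0.89, adjusted permutation p = 0.000495 and 0.00495) and Dnajb1 (r = 0.89, rho = 0.75, adjusted permutation p = 0.00165 and 0.0209). Hsf1 (r = 0.86, rho = 0.64) and Hspe1 (r = 0.84, rho = 0.75) also passed by r. Without young replicates 6 and 5, the libraries farthest from the median of Hspa8, Hspa4 (r = 0.86) and Dnajb1 (r = 0.81) passed and the other 7 did not, with r falling from 0.84 to 0.58 for Hspe1, from 0.86 to 0.37 for Hsf1 and from 0.74 to 0.17 for Hsp90ab1. The libraries left out were the 2 highest in Hspa8, which narrows its range and can lower r, and fewer libraries give the test less power. Among all other genes, 7.59% reached an r of 0.7 with Hspa8, against 8 of these 13.

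Wider lists of the same pathways were read in the same fit, and 0 of their genes passed an edgeR adjusted p of 0.05. Of 18 genes of ER-associated degradation, which extracts misfolded proteins for the proteasome, 10 had a positive log2 fold change and the median was 0.01. The lowest p-values there were those of Edem3, which trims mannose from misfolded glycoproteins (log2 fold change 0.34, standard error 0.13, unadjusted edgeR p of 0.0231), and Sel1l (0.15, unadjusted edgeR p of 0.0495), both with an adjusted p of 0.77. Of 15 other ER folding factors 4 were positive, with a median of -0.04, led by the prolyl isomerases Fkbp2 (-0.25) and Ppib (-0.11). Of 14 genes of translocation into the ER 7 were positive, with a median of -0.02. Sec61g, a subunit of the translocation channel, had the lowest p there (log2 fold change -0.26, edgeR adjusted p = 0.77), and Ssr3 was next (0.16). None of the 13 genes of the cytosolic chaperonin and its partner prefoldin was positive, with a median of -0.13, and Pfdn5 (-0.16) and Cct5 (-0.14) had the lowest p. Of 10 other mitochondrial quality genes 1 was positive, with a median of -0.15, led by the iron-sulphur co-chaperone Hscb (-0.26) and the protease Lonp1 (-0.17). Of 22 genes tested from a list of other, mainly cytosolic, chaperones 10 were positive, with a median of -0.01. The lowest p-values there were those of Dnajc7 (-0.16) and Cryab (0.99). Cryab was near the floor, at 0.849 ± 0.343 CPM (young) and 1.69 ± 0.979 CPM (old). Its log2 fold change had a standard error of 0.41 (edgeR adjusted p = 0.77). Chaperonin genes were highest of the young group in young replicate 6 for 11 of 13, and highest of the old group in old replicate 2 for 9 of 13. The share of all genes highest in those libraries was not measured.

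Known targets of ATF4 made a separate case. PERK and other kinases raise ATF4, which then drives genes of amino acid synthesis and of stress. Of the 16 targets listed, 2 had a positive log2 fold change and the median was -0.27, with none past the threshold. Chac1, which breaks down glutathione, had the lowest p (log2 fold change -1.32, standard error 0.57, edgeR adjusted p = 0.77). It ranged from 0.438 to 6.47 CPM in young and from 0.622 to 1.67 CPM in old libraries. Eif4ebp1, an inhibitor of translation, was next (-0.25). In 11 of the 16, young replicate 6 was the highest of the 12 libraries, as it was for Atf4, and in 11 of 16 old replicate 2 was the highest old library. The following genes were chosen after their values were seen. In young replicate 6 the amino acid synthesis genes Asns, Psat1 and Phgdh were at 84.2, 78.4 and 90.6 CPM, where young replicates 1 to 5 gave 16.96 to 26.7, 17.1 to 22.8 and 19.2 to 24.1 CPM. The mitochondrial folate genes Mthfd2 and Shmt2 were at 124 and 117 CPM there, against 21.9 to 42.9 and 30.7 to 40.7 CPM. The stress targets Trib3 (15.4 CPM), Chac1 (6.47 CPM), Sesn2 (58.3 CPM) and Ddit4 (7.52 CPM) were also at their highest of the 12 there. The listed targets Atf3 (357 CPM), Ppp1r15a (41.2 CPM), Cebpb (21.2 CPM), Nupr1 (15.3 CPM) and Slc7a11 (4.20 CPM) were not, nor was Ddit3 (32.7 CPM). This describes 1 library, with no replicate, and the share of all genes highest in it was not measured. The library's cell cycle level (6.83 mean log2 CPM) and Cd34 level (59.7 CPM) were the highest of the 12, and their part in this was not tested.

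**Figure D5:**
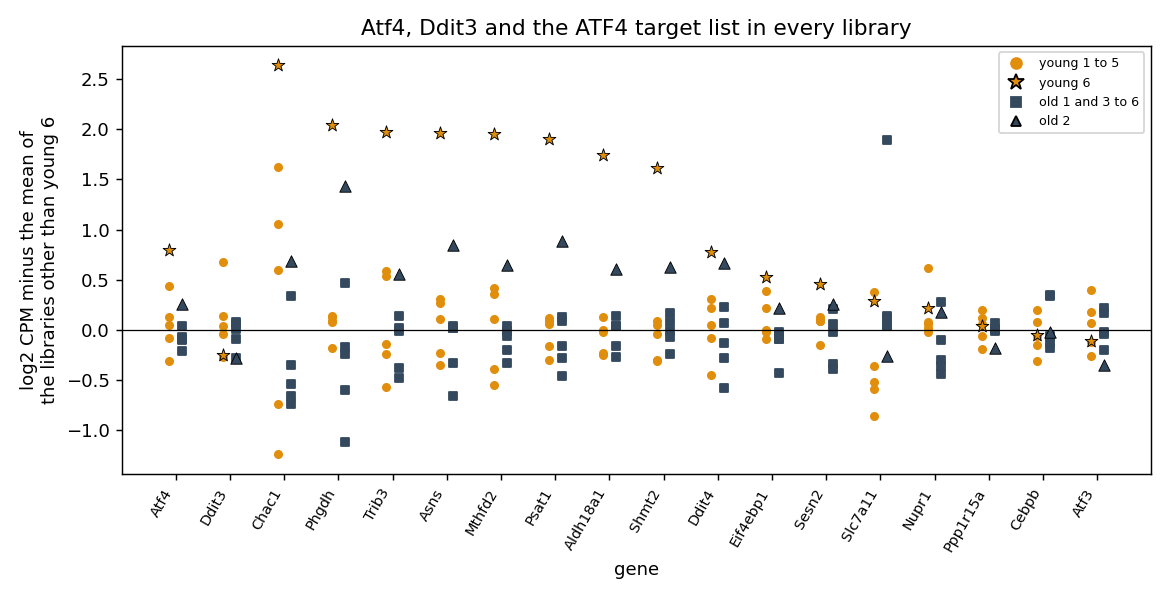
Log2 CPM of Atf4, Ddit3 and the 16 listed targets in each library minus the mean of the 11 libraries other than young replicate 6. Young replicate 6 is a star, old replicate 2 a triangle, and the other libraries are circles (young) and squares (old). The star is the highest point for Atf4 and 11 of 16 targets, with Asns at 84.2 CPM, and lies among the other points for Ddit3, Atf3, Ppp1r15a and Cebpb.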

How the data were processed

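Counts per gene for 12 libraries were deposited by the authors as whole numbers that were not normalised, made per the file headers with featureCounts 1.6.0, on GRCm38 with the gene models of Ensembl release 100. The kit named in the labels' protocols keeps no strand, and multiply aligned reads were not counted, per the file headers. The submitters' processing notes name FastQC, STAR and mm10. How read mates were counted is not stated there, so counts are alignment records and not independent molecules, and limits for a count of 0 (3 counts) cover counting error only. The 260 rows without a symbol held 0.00438% of counts.

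The test was edgeR 4.0.16's in R 4.3.3 (quasi-likelihood F test, robust, TMM factors, edgeR's low-count filter, group alone, Benjamini-Hochberg over 12620 genes, two-sided, positive meaning higher in old), after a check on simulated data. CPM used TMM factors, and CPM per kb divided by exon length. No pair of libraries agreed within sampling noise (chi-square per gene 5.12 to 182). Correlations used SciPy 1.17.1 and two-sided permutation. DESeq2 1.42.0 and limma 3.58.1 voom were alternatives. Members, lists, tests and alternatives were chosen with earlier results of these data known. The value in every library is given for the most abundant gene per kb, the lowest p and the widest ratio of each role, and for Hspa5, Hspa8, Hspa1a, Hspa1b, Ddit3, Atf4, Xbp1 and Hsf1. Up to 2 genes of lowest p were named from each wider list, and other genes were chosen after their values were seen. Promoters were RefSeq's, build GRCm38.p6.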

Additional observations from a re-analysis of the deposited data

Results flagged for a closer look

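In each age group of 6 libraries, the gap of the highest or lowest library to its neighbour was divided by the group's range, and 7 of 70 groups had a ratio above Dixon's 95% critical value. Chance alone marks about 1 in 20 such groups. Young replicate 6 gave 4 of them. There Hsp90ab1 was at 1168 CPM, with young replicates 1 to 5 between 747 and 843 CPM, and Hspa9 was at 291.8 CPM against 161 to 192 CPM. In the same library Herpud1 was at 59.23 CPM against 79.6 to 92.5 CPM, and Xbp1 was at 113.9 CPM against 144 to 162 CPM. In old replicate 6, Bag3 stood above the other old libraries, at 59.95 CPM against 51.8 to 54.6 CPM. Hsf1 stood below them in that library, at 38.81 CPM against 42.65 to 43.9 CPM. Hspa1a was at 0.2258 CPM in old replicate 5 against 0.725 to 1.26 CPM, a difference of few counts.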

How the results depend on the processing

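Under all 21 alternatives 0 members and 0 genes of the wider lists passed an adjusted p of 0.05. Over all genes, the count of 2 became 4 with no low-count filter, 15 by DESeq2, 4 with a replicate block, 5 with a cell cycle covariate and 1 to 5 when each library was left out. No clear pairing by replicate number was seen: same-numbered libraries correlated between -0.171 and 0.390, and only young replicates 1 and 4 correlated best with their own number. These correlations also carry the cell cycle spread between libraries, so they cannot exclude a batch shared by number. Correlations past the threshold went from 22 of 33 to 9 without the 2 farthest libraries. Hspe1 kept an unadjusted p under 0.05 in 21 of 21 alternatives (0.00125 to 0.0132) and Ern1 in 15 of 21 (0.00452 to 0.0823), with edgeR, DESeq2 and limma. With the 3 libraries of highest cell cycle level (young replicate 6, old replicates 2 and 3) left out, 6 of 35 members (17.1%) had an unadjusted p under 0.05 (Hspe1, Atf6, Dnajc3, Ern1, Dnajb9 and Hsp90aa1), near the 18.1% of all genes in that fit.

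No member whose sign turned passed the threshold, and the cause was not tested. With a cell cycle covariate the log2 fold change was 0.002 for Hsph1 and -0.014 for Hsp90b1. With the 3 libraries left out it was -0.091 for Hspa1a, 0.127 for Hsph1, 0.039 for Dnaja1, 0.002 for Dnajb1, 0.076 for Hspa9, 0.026 for Hspd1, 0.035 for Hspa5, 0.123 for Calr, 0.009 for Pdia6, 0.095 for Hyou1, 0.031 for Sdf2l1, 0.092 for Creld2 and -0.007 for Herpud1. Class medians were then 0.002 (cytosolic), 0.0265 (mitochondrial), 0.0818 (ER) and 0.1117 (sensors). When each library was left out, they ranged from -0.1133 to -0.0001, from -0.1809 to -0.013, from -0.078 to 0.0271 and from 0.0333 to 0.1239. Signs also turned for Hsph1 (-0.067 to 0.077), Hsp90aa1 (-0.037 to 0.279), Bag3 (-0.01 to 0.049), Hspa9 (-0.129 to 0.076), Hspa5 (-0.12 to 0.023), Hsp90b1 (-0.025 to 0.063), Calr (-0.069 to 0.082), Hyou1 (-0.097 to 0.027), Sdf2l1 (-0.183 to 0.035), Creld2 (-0.092 to 0.029) and Herpud1 (-0.042 to 0.09).

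Hspa1a and Hspa1b were too low for a filter of 1 CPM in 6 libraries, which left 33 members, and Hspb1 was too low for the test. Reads in sequence shared between genes were not counted, which touches Hspa1a, Hspa1b, Hsp90aa1, Hspd1, Hspa8, Hspe1 and Dnaja1 among the members tested (20.6% to 66.3% of exon words). It also touches Hspb1 (50.1%), which was not tested.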
